A study of Mus musculus with 211 samples.

Results

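The 10 genes described here encode transcription factors of granulocyte development: Spi1, Cebpa, Cebpb, Cebpd, Cebpe, Gfi1, Myb, Runx1, Irf8 and Mxd1. They were found by Ensembl identifier among the 48709 genes of the expression table, and all 10 matched. Expression was measured in 211 single cells that had been sorted for GFP from cochleae of Lfng-EGFP mice, a CD1 line in which regulatory sequence of Lfng drives EGFP from a transgene. Mice of P60 gave 48.3% of the cells, from 8 captures on the Fluidigm C1, a chip that isolates single cells, and mice of P120 gave 51.7%, from 4 captures. Every cell carried the transgene, no wild-type cell was included, and the cochleae of several mice were pooled for a capture, so the capture is the replicate here. The labels call all cells adult cochlear supporting cells, but at least 3 of 10 leukocyte genes held 10 or more reads in 171 of the 211 cells, and at least 3 of 15 supporting cell genes did so in 7 cells.

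In the bone marrow, granulocytes arise from progenitors through promyelocytes, which fill the primary granules with proteases and peroxidase, to band cells and mature neutrophils. PU.1, the product of Spi1, and C/EBPα, the product of Cebpa, open the myeloid program, while MYB and RUNX1 act in the progenitors. GFI1 and C/EBPε guide the cells from the promyelocyte onward, C/EBPβ and C/EBPδ act late and in inflammation, IRF8 turns progenitors toward monocytes, and MXD1 binds MAX in place of MYC in cells that leave the cycle.

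The factors were compared between cells that held 10 or more reads of Elane or Mpo, which encode neutrophil elastase and myeloperoxidase of the primary granules, and cells that held 10 or more reads of Il1b, which encodes the cytokine interleukin 1 beta. There were 43 cells with Elane or Mpo and without Il1b, called Elane/Mpo cells below. There were 92 Il1b cells, 24 cells that met both criteria and 52 that met neither. The Elane/Mpo cells were the deeper class: the median cell held 1700680 reads and 4503 detected genes, against 653435 reads and 1482.5 genes for the Il1b cells. Their median GFP score was 192, against 449 in the Il1b cells. Shares of cells are therefore given after each cell was thinned at random to 50000 reads, which 38 Elane/Mpo cells and 78 Il1b cells reached. Low counts need care, because 48.9% of the Il1b cells held at least 1 read of Elane, at a level of 1.42 CPM (reads scaled to one common total of reads on genes) in the class. In the Elane/Mpo cells Elane stood at 11188 CPM.

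Promoters are shown for Myb and Mxd1, which had the largest differences toward either class among the 8 factors that passed the filter on low counts. RefSeq windows on GRCm38.p6 were matched for 7 of the 10 members; Spi1, Cebpd and Cebpe had none. The sequences run 5′ to 3′ on the strand of the gene, end at the base before the first annotated exon, and carry in capitals the GC boxes (GGGCGG on either strand). The Myb sequence lies at chr10:21160985-21161234 and the Mxd1 sequence at chr6:86669162-86669409, both on the minus strand.
Myb: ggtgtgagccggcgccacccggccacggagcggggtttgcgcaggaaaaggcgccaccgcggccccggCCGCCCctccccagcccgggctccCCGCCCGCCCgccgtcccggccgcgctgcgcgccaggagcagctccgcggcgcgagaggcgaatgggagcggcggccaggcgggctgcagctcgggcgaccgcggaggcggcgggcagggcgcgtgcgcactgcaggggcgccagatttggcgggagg
Mxd1: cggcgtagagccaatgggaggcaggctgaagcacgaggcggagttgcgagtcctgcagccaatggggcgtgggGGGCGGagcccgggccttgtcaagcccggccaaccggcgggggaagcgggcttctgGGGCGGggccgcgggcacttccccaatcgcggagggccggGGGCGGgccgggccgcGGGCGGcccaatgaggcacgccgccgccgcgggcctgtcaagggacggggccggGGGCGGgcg
The Myb window held 3 GC boxes and a GC content of 81.2%, and the Mxd1 window 5 GC boxes and 78.2%. A GC box was found in 32.7% of all 32851 windows of 250 bases. Neither sequence held TTGCNNAA (C/EBP, in 9.56% of all windows), GAGGAA (PU.1, 23.2%), TGTGGT (RUNX, 14%), TAACNG (MYB, 19.8%), AAATCA (GFI1, 12.4%) or CACGTG (MAX, 6.02%), each searched on both strands, with no overlap among the matches shown other than between neighbouring GC boxes. These letters are missing from these windows only, which says nothing of binding elsewhere.

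Across all 211 cells, Mxd1 and Cebpb were the most widely detected members. Reads of Mxd1 were present in 177 cells (83.9%) and of Cebpb in 172 cells (81.5%). Spi1 was read in 49.3% of the cells, Cebpd in 42.7%, Runx1 in 41.7%, Myb in 30.8%, Cebpe in 28.4%, Cebpa in 17.1%, Gfi1 in 16.1% and Irf8 in 6.16%. After thinning, a cell held a median of 3 of the 10 factors, with a range of 0 to 8 over 164 cells. The Elane/Mpo cells held a median of 4 and the Il1b cells 3. Cells with 10 or more reads of a factor were leukocyte-like by the marker list: all 23 Gfi1 cells, all 42 Myb cells and 127 of 128 Mxd1 cells passed it, as did 123 of 131 Cebpb cells. Gfi1 is also a hair cell gene. The other 8 hair cell genes on the list took 0.00155% of the reads of the 23 Gfi1 cells, and 6 of the 23 cells held 10 or more reads of at least 1 of them.

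Levels of different genes were set side by side as CPM per kilobase of exon over all cells. Mxd1 stood highest at 144 CPM per kb and Cebpb second at 115. Next came Spi1 at 26.9, Cebpe at 24.7, Runx1 at 19.6, Cebpd at 15.8, Gfi1 at 14, Myb at 12.5 and Cebpa at 12.3 CPM per kb, and Irf8 was lowest at 2.97. Cebpb stood above Spi1 in 11 of 12 captures. Mxd1 stood above Cebpb in 7 of 12 captures, and from Spi1 down each gene stood above the next in 4 to 8 of 12, so those neighbours did not differ beyond the spread between captures.

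**Figure D1:**
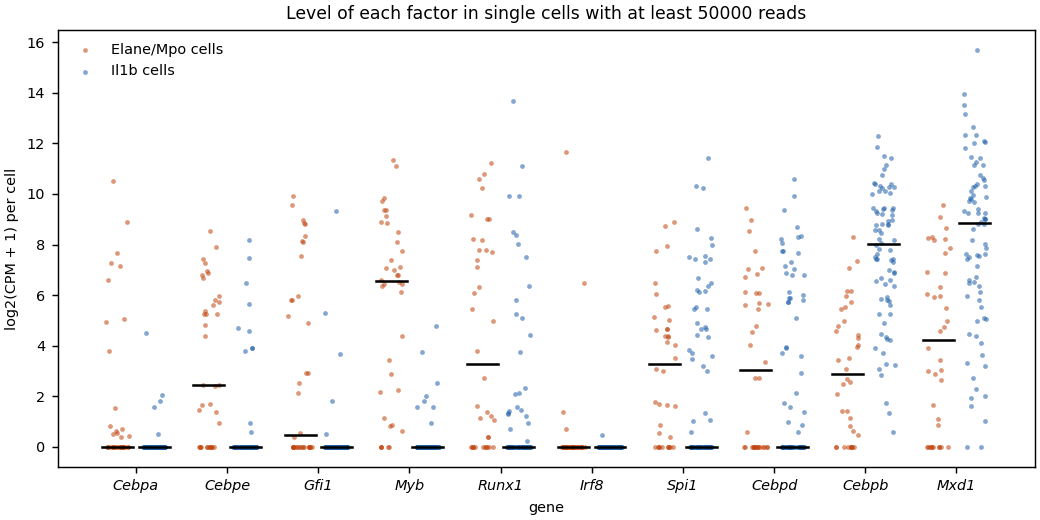
Each point is a cell with at least 50000 reads, the y axis gives log2(CPM + 1), and black bars mark the medians of 38 Elane/Mpo cells and 78 Il1b cells. Myb has a median of 94.4 CPM in the Elane/Mpo cells and 0 in the Il1b cells, while Cebpb and Mxd1 have medians of 259 and 461 CPM in the Il1b cells and 6.4 and 18.4 CPM in the Elane/Mpo cells.

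Mxd1 was higher in the Il1b cells than in the Elane/Mpo cells and was the only factor that passed the test. Myb and Gfi1 had higher values in the Elane/Mpo cells of all 4 captures compared, and Cebpb and Spi1 had higher values in the Il1b cells of all 4, but none of these passed. Cebpa also had higher values in the Elane/Mpo cells of all 4, near 0 in captures 28 and 38, and did not pass the filter on low counts. Runx1, Cebpe and Cebpd lay in different directions in different captures. The classes were tested on counts summed per capture and class by the quasi-likelihood test of edgeR, blocked on capture, in the 4 captures that held at least 3 cells of each class (28, 32 and 38 of P120 and 9c of P60). Of 5775 genes tested, 0.312% passed an adjusted p of 0.05 with a higher level in the Elane/Mpo cells and 1.56% with a higher level in the Il1b cells. Of the 10 factors 8 passed the filter on low counts, and Mxd1 alone passed the test, while 2 of the 8 (Mxd1 and Myb) and 15% of all genes had an unadjusted p under 0.05. Positive log2 differences denote a higher level in the Elane/Mpo cells. The median over all 5775 genes was 1.28 rather than 0. Against that median Myb (6.76) and Gfi1 (5.94) lay higher, Mxd1 (-6.32), Cebpb (-5.48), Spi1 (-4.17) and Cebpd (-3.31) lay lower, and Runx1 (0.33) and Cebpe (-0.21) lay close to it. Adjusted p-values are from edgeR with the Benjamini-Hochberg adjustment unless DESeq2 is named. Values of the classes did not overlap over the 4 captures, with the Elane/Mpo cells higher, for 15% of all genes, and with the Il1b cells higher for 2.98%. All 4 captures lay higher in the Elane/Mpo cells for 25% of all genes and in the Il1b cells for 6.72%.

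The proto-oncogene Myb lies at chr10:21124935-21160984. After thinning it was read in 63.2% of the Elane/Mpo cells (exact 95% interval 46 to 78.2%) and in 1.28% of the Il1b cells (0.03 to 6.94%). Summed per capture, its level in the Elane/Mpo cells was 352 CPM in capture 28, 157 in capture 32, 741 in capture 38 and 440 in capture 9c. In the Il1b cells of these captures it was 0.544, 0.279, 0.224 and 9.21 CPM. The classes did not overlap, as for 15% of all genes tested in this direction, and every capture lay higher in the Elane/Mpo cells, as for 25%. The log2 difference was 8.04 (SE 2.66), and with an adjusted p of 0.092 it did not pass. Myb met the filter on low counts through the Elane/Mpo cells alone, so the size of its difference is no separate support. In the 3 captures with fewer cells of a class, Myb was at 86.2 CPM in the single Elane/Mpo cell of 17c, at 51.3 CPM in 31 and at 141 CPM in 40, and at 0 to 0.242 CPM in their Il1b cells. Only 1 of 92 Il1b cells held 10 or more reads of Myb, with 26 reads.

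Gfi1, a zinc finger repressor, lies at chr5:107716657-107726036. It was read in 39.5% of the thinned Elane/Mpo cells (24 to 56.6%) and in 2.56% of the Il1b cells (0.31 to 8.96%). The captures 28, 32, 38 and 9c gave 180, 52.4, 44.2 and 257 CPM in the Elane/Mpo cells and 0.544, 38.2, 0.0745 and 0 CPM in the Il1b cells. All 4 lay higher in the Elane/Mpo cells and the classes did not overlap, against 15% of all genes, though a single cell of capture 32 held 98.6% of all Gfi1 reads of the Il1b class. The log2 difference of 7.22 (SE 3.93) had an adjusted p of 0.376 and did not pass. Gfi1, too, met the filter on low counts through the Elane/Mpo cells alone, so the size of its difference is no separate support. Of the 23 cells with 10 or more reads of Gfi1, 21 were Elane/Mpo cells or cells of both classes.

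Cebpa lies at chr7:35119293-35121928 and shares exon bases with the antisense gene Gm45091. It was read in 8 of 38 thinned Elane/Mpo cells (21.1%, 9.55 to 37.3%) and in 1 of 78 Il1b cells. Its level in the Elane/Mpo cells was 2.79, 259, 0.255 and 95.7 CPM in captures 28, 32, 38 and 9c, and at most 0.354 CPM in their Il1b cells. It was thus high in 2 captures and near 0 in the other two, and it did not pass the filter on low counts. Without the filter its log2 difference was 8.37 (SE 3.91) with an adjusted p of 0.849.

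Runx1, which binds DNA with CBFβ, lies at chr16:92601466-92826149. It was read in 50% of the thinned Elane/Mpo cells (33.4 to 66.6%) and in 16.7% of the Il1b cells (9.18 to 26.8%). The Elane/Mpo cells of captures 28, 32, 38 and 9c held 53, 612, 119 and 636 CPM, and the Il1b cells 740, 6.23, 40.6 and 51.4 CPM. Capture 28 thus lay opposite to the other three. The log2 difference was 1.61 (SE 2.37), with an adjusted p of 0.789, and it took the opposite sign without capture 32, at -0.05. A single Il1b cell of capture 17c, outside the tested captures, held 56.8% of all Runx1 reads of the Il1b class.

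Cebpe, which encodes the C/EBP factor of granule maturation, lies at chr14:54710360-54712174. It was read in 44.7% of the thinned Elane/Mpo cells (28.6 to 61.7%) and in 10.3% of the Il1b cells (4.53 to 19.2%). Its levels were 65, 5.87, 32.9 and 21.4 CPM in the Elane/Mpo cells of captures 28, 32, 38 and 9c. In the Il1b cells they were 36.2, 0.836, 0.224 and 61 CPM. The P120 captures lay higher in the Elane/Mpo cells and the P60 capture lower. The log2 difference of 1.06 (SE 3.14) had an adjusted p of 0.915, and it was -0.15 without capture 38.

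Irf8, at chr8:120736358-120756694, was the rarest factor. Only 3 of 211 cells held 10 or more reads, all from P60: an Elane/Mpo cell of capture 40 with 3386 reads, a cell of neither class in capture 9c with 1089 and an Elane/Mpo cell of capture 9c with 125. The first of these held 73.3% of all Irf8 reads. None of 78 thinned Il1b cells held a read, with an upper limit of 4.62% on the exact interval. Irf8 did not pass the filter on low counts.

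**Figure D2:**
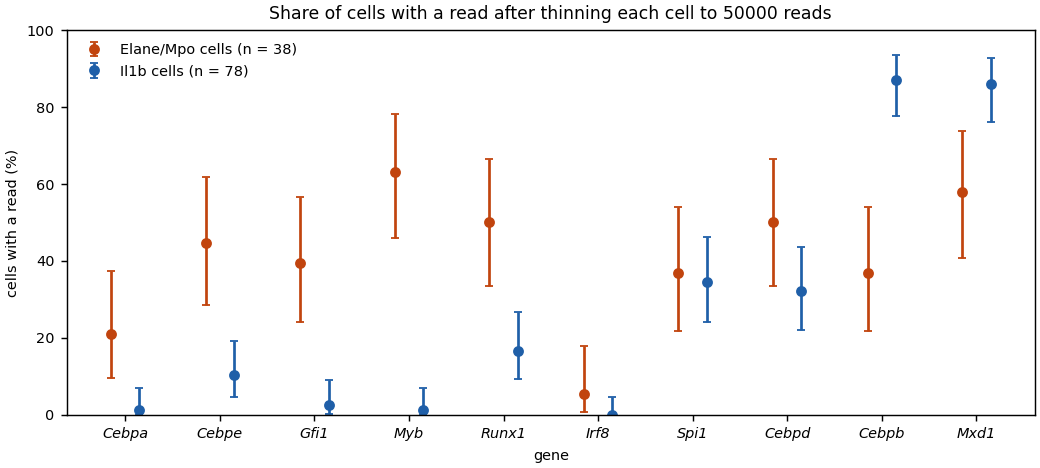
Points give the share of cells with at least 1 read of each factor after every cell was thinned to 50000 reads, in percent, with exact 95% intervals that cover counting error only. The intervals of the 38 Elane/Mpo cells and the 78 Il1b cells are apart for Cebpa, Cebpe, Gfi1, Myb, Runx1, Cebpb and Mxd1 and overlap for Irf8, Spi1 and Cebpd; of 6864 genes read in at least 5% of the thinned cells, 43.5% are apart with the Elane/Mpo cells higher and 1.72% with the Il1b cells higher.

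Spi1, at chr2:91082390-91115756, did not separate the classes by detection. It was read in 36.8% of the thinned Elane/Mpo cells (21.8 to 54%) and in 34.6% of the Il1b cells (24.2 to 46.2%). Its levels were 35.5, 5.67, 11 and 22.5 CPM in the Elane/Mpo cells of captures 28, 32, 38 and 9c, and 48, 47.4, 126 and 43.2 CPM in the Il1b cells. Every capture lay higher in the Il1b cells, as did 6.72% of all genes tested, and the classes did not overlap, as for 2.98%. The log2 difference of -2.89 (SE 2.62) had an adjusted p of 0.619.

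Cebpd, an acute phase factor at chr16:15887286-15891031, was read in 50% of the thinned Elane/Mpo cells (33.4 to 66.6%) and in 32.1% of the Il1b cells (21.9 to 43.6%). The Elane/Mpo cells held 86.4, 26, 0 and 36.7 CPM in captures 28, 32, 38 and 9c and the Il1b cells 29.8, 66.4, 33.4 and 52.5 CPM. The classes overlapped, and the adjusted p was 0.774.

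Cebpb, a C/EBP factor of the inflammatory response at chr2:167688915-167690418, was read in 87.2% of the thinned Il1b cells (77.7 to 93.7%) and in 36.8% of the Elane/Mpo cells (21.8 to 54%). The Il1b cells of captures 28, 32, 38 and 9c held 51.3, 326, 484 and 143 CPM. The Elane/Mpo cells held 29.9, 6.65, 23.7 and 27 CPM. All 4 captures lay higher in the Il1b cells and the classes did not overlap, against 2.98% of all genes, with the smallest gap in capture 28. The log2 difference was -4.20 (SE 2.18), and with an adjusted p of 0.344 it did not pass. Every one of the 78 Il1b cells with at least 50000 reads held a read of Cebpb before thinning. Cebpb is a gene of 1 exon whose bases overlap Tmem189 on the other strand. Cebpd, Gfi1, Myb and Runx1 also share exon bases with genes on the other strand, and reads of such partners cannot be told apart here.

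Mxd1, at chr6:86647042-86669161, was higher in the Il1b cells. Its level there was 1403 CPM in capture 28, 4798 in capture 32, 730 in capture 38 and 1022 in capture 9c. In the Elane/Mpo cells of the same captures it was 171, 24.5, 92.4 and 74.3 CPM. The classes did not overlap, as for 2.98% of all genes tested in this direction, and the lowest Il1b value lay above the highest Elane/Mpo value. The log2 difference was -5.04 (SE 1.22) with an adjusted p of 0.0044. The level was higher in the Il1b cells in 4 of 4 captures, as for 6.72% of all genes. The call was lost without capture 32 (log2 difference -4.22, adjusted p 0.346) and without capture 9c (-5.44, adjusted p 0.052), and also when the block joined capture and sequencing run (-4.43, adjusted p 0.110). It was lost as well with cells of both classes joined to the Elane/Mpo cells and with at least 5 cells of each class per capture. Without cells with 10 or more reads of Prss34 or Mcpt8 it was lost too, and the difference shrank to -2.05. After thinning, 85.9% of the Il1b cells (76.2 to 92.7%) and 57.9% of the Elane/Mpo cells (40.8 to 73.7%) held a read, so Mxd1 differed more in level than in detection.

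**Figure D3:**
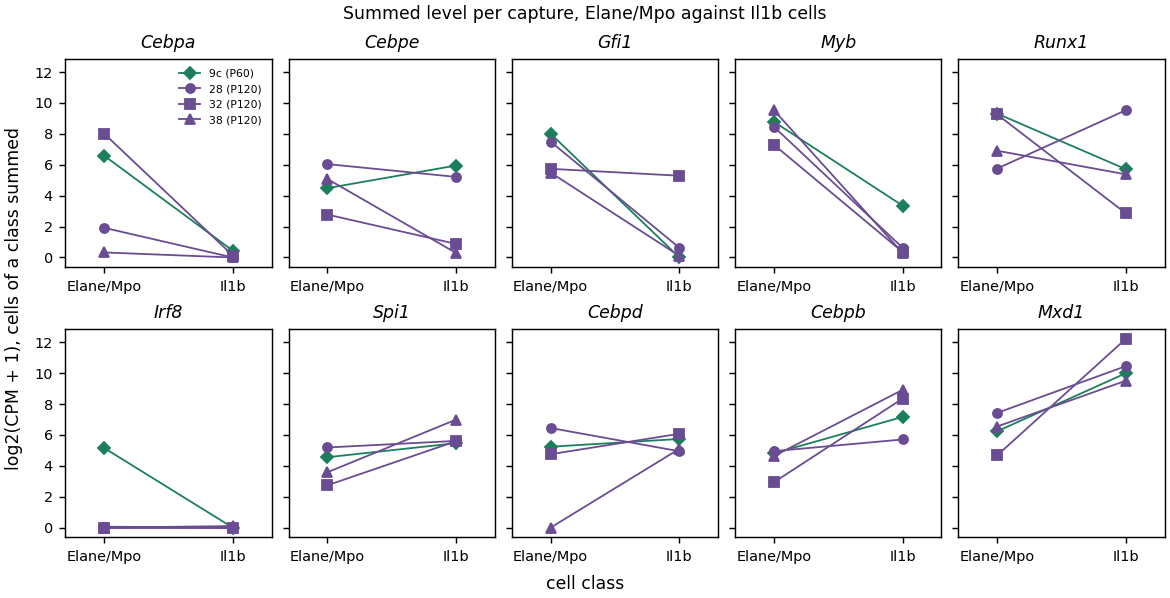
Each line joins the Elane/Mpo cells and the Il1b cells of a capture, summed by class, on a log2(CPM + 1) scale; purple lines are the P120 captures and the green line is the P60 capture. All 4 lines fall from the Elane/Mpo cells to the Il1b cells for Myb, Gfi1 and Cebpa, though Cebpa starts at 2.79 and 0.255 CPM in captures 28 and 38. They rise for Spi1, Cebpb and Mxd1 and cross for Cebpe, Runx1 and Cebpd.

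The direction of these differences was also read within each sequencing run. The classes were spread unevenly over the runs: S059iso1 held 26 Elane/Mpo cells and 20 Il1b cells, and S059iso2 held 12 and 49. A block on capture alone thus does not separate class from run. In run S047 Myb stood at 292 CPM in 5 Elane/Mpo cells and 1.8 CPM in 23 Il1b cells. In S059iso1 it stood at 220 and 0.6 CPM, and in S059iso2 at 346 and 0.1 CPM. Mxd1 stood at 54 and 1641 CPM in S047, at 85.6 and 1067 CPM in S059iso1 and at 193 and 2010 CPM in S059iso2. Cebpb was likewise lower in the Elane/Mpo cells of each run, at 18.8, 12.8 and 37.0 CPM against 324, 825 and 294 CPM. Runx1 lay higher in the Elane/Mpo cells of S059iso1, at 352 against 78.4 CPM, and lower in those of S059iso2, at 4.3 against 125 CPM. In S047 its direction differed between captures. It was higher in the Elane/Mpo cells of 9c, at 636 against 51.4 CPM. In 17c, with 1 cell of each class, it was lower, at 575 against 12968 CPM.

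The Elane/Mpo cells were not uniform in their factors. Prss34 or Mcpt8, which encode serine proteases of basophils, held 10 or more reads in 13 of the 43 cells, and in 11 of the 92 Il1b cells. All 7 Elane/Mpo cells of capture 32 were among the 13, with Prss34 at 37576 CPM in their sum, while in capture 9c 1 of 4 cells was, with a sum of 19504 CPM. In captures 28 and 38 the sums of the Elane/Mpo cells held only 9.35 and 4.09 CPM, and no Il1b sum held more than 11.6 CPM. The threshold of 10 reads thus joins cells with high levels to cells with low counts. Cebpe was read in 57.7% of 26 thinned Elane/Mpo cells without these proteases and in 16.7% of 12 with them. Mxd1 was read in 69.2% of the former and 33.3% of the latter. Runx1 went the other way, with 42.3% and 66.7%, as did Cebpa with 15.4% and 33.3%. Myb was read in 57.7% and 75%, and Gfi1 in 42.3% and 33.3%. Capture 32 gave 7 of the 13 cells, and no test was made. Without all cells that held 10 or more reads of Prss34 or Mcpt8, 2 captures could be compared. Capture 38 was lost through 1 cell with low counts of these genes. The Mxd1 difference was then -2.05 and did not pass, and the part of these cells in the result was not tested beyond that.

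Of the 20 cells of both classes after thinning, 45% held Myb, 65% held Cebpb and 70% held Mxd1, shares between those of the Elane/Mpo and the Il1b cells. Runx1 was read in 65% of them, a share above that of either class. Their summed Mxd1 level was 1531 CPM, close to the 1737 CPM of the Il1b cells and above the 111 CPM of the Elane/Mpo cells. The median cell of both classes held 1746570 reads, about as many as the median Elane/Mpo cell.

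Within the C/EBP family, single cells mostly held few members. After thinning, 78 of 164 cells held 1 of the 4 genes, 50 held 2, 12 held 3, 1 held all 4 and 23 held none. By reads per kilobase Cebpb led in 63 of the 78 Il1b cells, and 3 of these held no member. In the Elane/Mpo cells Cebpe led in 13, Cebpb in 6, Cebpa in 5 and Cebpd in 5. Cebpa and Cebpe were read together in 2 cells, with 11 cells holding Cebpa alone and 37 Cebpe alone. Before thinning the shares lay the other way, with Cebpe read in 36.1% of the cells with Cebpa and in 26.9% of those without. Cebpe was read in 16.8% of the thinned cells with Cebpb and in 36.8% of those without, and this too turned before thinning, at 29.7% and 23.1%, and at 10 or more reads, at 18.3% and 17.5%. With Cebpd the direction was the same in each counting: Cebpe was read in 37.3% of the thinned cells with Cebpd and in 16.2% of those without, and in 45.6% and 15.7% before thinning.

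No pair of factors in common use was fully exclusive. Of the cells with Cebpa, 92.3% also held Runx1, against 25.8% of the cells without Cebpa, and 76.9% held Myb, against 18.5%. Runx1 was read in 71.1% of the cells with Myb and in 19% of those without. Myb was read in 68.2% of the Gfi1 cells and in 16.2% of the other cells. These directions were the same before thinning and at 10 or more reads. Lower shares depended on the counting. Myb was read in 16.8% of the thinned cells with Cebpb and in 35.1% of those without, but in 31.4% and 28.2% before thinning and in 19.8% and 20% at 10 or more reads. Mxd1 was read in 50% of the thinned cells with Gfi1 and in 78.9% of those without. The direction was the same before thinning, at 73.5% and 85.9%, but not at 10 or more reads, at 65.2% and 60.1%. All these shares mix the classes. Within the Elane/Mpo cells all 8 Cebpa cells held both Myb and Runx1, while Spi1 was read in 4 of 19 Runx1 cells and in 10 of 19 cells without Runx1. There too, 10 of the 15 Gfi1 cells held Cebpe, against 7 of 23 cells without Gfi1.

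**Figure D4:**
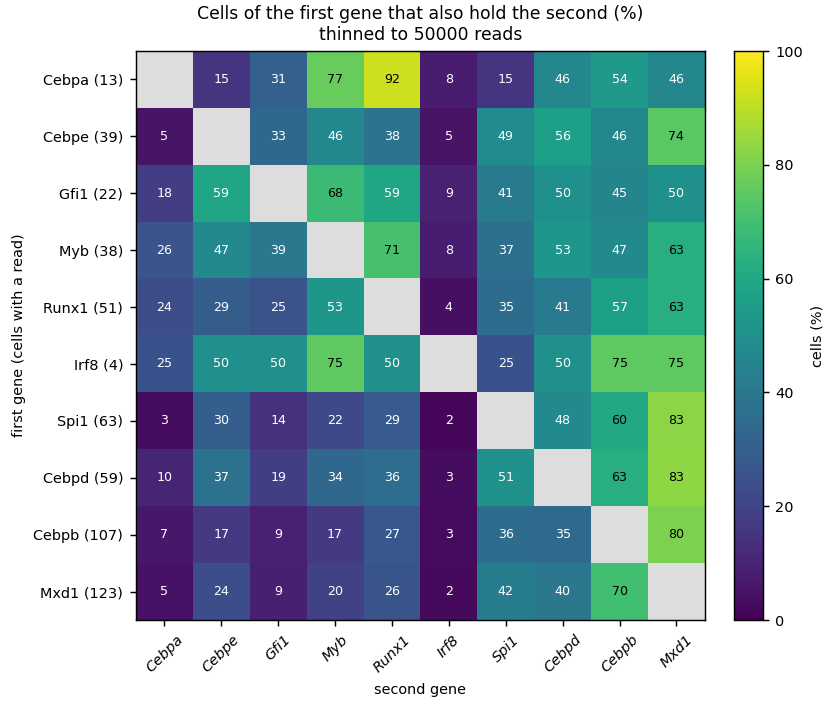
Each square gives the percentage of cells with the first gene (row, number of cells in brackets) that also held the second gene (column), over 164 cells thinned to 50000 reads. Rows of Cebpa, Gfi1 and Myb are bright in the Myb and Runx1 columns, and no square outside the Irf8, Cebpa and Gfi1 columns falls to 10% or less.

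As a description over the 164 thinned cells, the Spearman correlation of log2(CPM + 1) was highest for Myb with Runx1 (0.46), Gfi1 with Myb (0.44) and Cebpa with Runx1 (0.42), and lowest for Cebpb with Myb (-0.29) and Cebpb with Cebpe (-0.28). The cells share captures and runs. Among 4450 genes read in at least 10% of the cells, those most like each factor were taken by the same measure. Myb was most like Krtcap2 and Cdk6 (both 0.70) and Gstm1 (0.67). Cebpb was most like the class gene Il1b (0.61), Gm10800 (0.52) and the kinase gene Pim1 (0.51). Mxd1 was most like the chemokine gene Cxcl2 (0.49), Msrb1 (0.49) and Trib1 (0.48). Cebpe was most like Chil3 (0.57), Ncam1 (0.57) and Fcnb (0.54), of which Chil3 and Fcnb are granule genes of immature neutrophils. Runx1 was most like Pdia6 (0.57), Ctsg (0.55) and Spcs3 (0.54), and Cebpa was most like Ssr2 (0.53), Spcs3 (0.49) and Rps6-ps4 (0.48). Gfi1 was most like Chchd1 (0.60), Dkc1 (0.57) and Ramp1 (0.57), Irf8 most like Ubr1 (0.42), Fundc1 (0.40) and Suclg1 (0.39), and the remaining pair reached at most 0.37, with Igsf6, Plcg2 and Cotl1 for Cebpd and Itgam, Gnai2 and Pxn for Spi1.

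Partners of the factors gave no call between the classes. None of 5 tested of 8 C/EBP partner genes passed, nor did any of 6 tested of 11 genes of the MYC, MAX and MXD network or of 7 tested of 11 partners of GFI1 and RUNX1. Their median log2 differences were 1.99, -1.95 and 3.29, beside 1.28 over all genes. Rcor1, a corepressor used by GFI1, stood at 235 CPM in the Elane/Mpo cells and 1.81 in the Il1b cells but did not pass the filter on low counts. Cbfb, the partner of RUNX1, lay the other way, at 45.8 CPM in the Elane/Mpo cells and 282 CPM in the Il1b cells (adjusted p 0.634). Myc stood at 20.3 and 0 CPM. Of 46 other myeloid and stem cell factors 29 were tested, and 4 passed, all higher in the Il1b cells, as did 1.56% of all genes. They were Trib1, a pseudokinase that destabilises C/EBPα (log2 difference -7.75, SE 1.57, adjusted p 1.90e-04), Fos (-3.35), Klf2 (-5.85) and Rara. Rara stood at 113 CPM in the Il1b cells and 0.0299 CPM in the Elane/Mpo cells. It thus passed the filter on low counts through the Il1b cells alone, and its call is no separate support.

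Granule and effector genes of the fixed lists also differed between the classes. Elane and Mpo, of the primary granules, and Il1b had set the classes. Genes read in the same cells as these 3 differ by that choice, so the calls describe the classes and are no separate support. Over all genes 0.312% passed with the Elane/Mpo cells higher and 1.56% with the Il1b cells higher. Of 7 tested primary granule genes 5 passed, all higher in the Elane/Mpo cells: Prtn3, Nkg7, Ctsg, Gstm1 and Ms4a3, with log2 differences of 8.41 to 10.7. Of 11 specific granule genes 3 passed, all higher in the Il1b cells: Mmp8, Lcn2 and Ltf. Of 12 late neutrophil genes 8 passed in that direction, with Retnlg at -10.7. Hdc and Tyrobp, of the basophil and leukocyte lists, were also higher in the Il1b cells. Basophil genes moved in part with the Elane/Mpo cells, where Mcpt8 (5.73, adjusted p 0.094) and Prss34 (5.19, adjusted p 0.125) did not pass.

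Levels of the factors were next compared between P60 and P120 over all cells of a capture. Captures 9c, 10c, 17c, 19c, 20c and 21c of P60 were sequenced in run S047, and no P120 capture was. Age and sequencing run thus cannot be told apart in most captures, and the same holds for the age comparisons within the classes. Of 8346 genes tested, 0.0599% passed with a higher and 0.0599% with a lower level at P120, and none of the 9 factors tested did; the smallest adjusted p among them was 1. An unadjusted p under 0.05 was found for 5.31% of all genes and for none of these factors. Mxd1 had a mean of 780 ± 819 CPM (SD, n = 8 captures) at P60 and 1170 ± 472 CPM (n = 4) at P120. Cebpb had 604 ± 1212 and 427 ± 554 CPM, and Runx1 481 ± 1149 and 210 ± 259 CPM. Myb ranged from 0 to 284 CPM over the P60 captures, with a median of 8.92, and from 0 to 188 over the P120 captures, with a median of 113. Gfi1 ranged from 0 to 211 and from 0 to 91.7 CPM, and Cebpa from 0 to 110 and from 0 to 140 CPM. The ages overlapped for each of these factors. Myb and Gfi1 were at or near 0 in captures that held no Elane/Mpo cell: in 10c, 19c, 20c, 21c and 36 Gfi1 was at 0 and Myb at most at 0.242 CPM. In a sum over cells, fewer cells with a factor and less RNA per cell cannot be told apart. Spi1 had 89.7 ± 95.3 and 39.1 ± 23.9 CPM, Cebpd 86.5 ± 116 and 54.5 ± 19.6 CPM, and Cebpe 23.1 ± 26 and 19.2 ± 15.8 CPM.

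**Figure D5:**
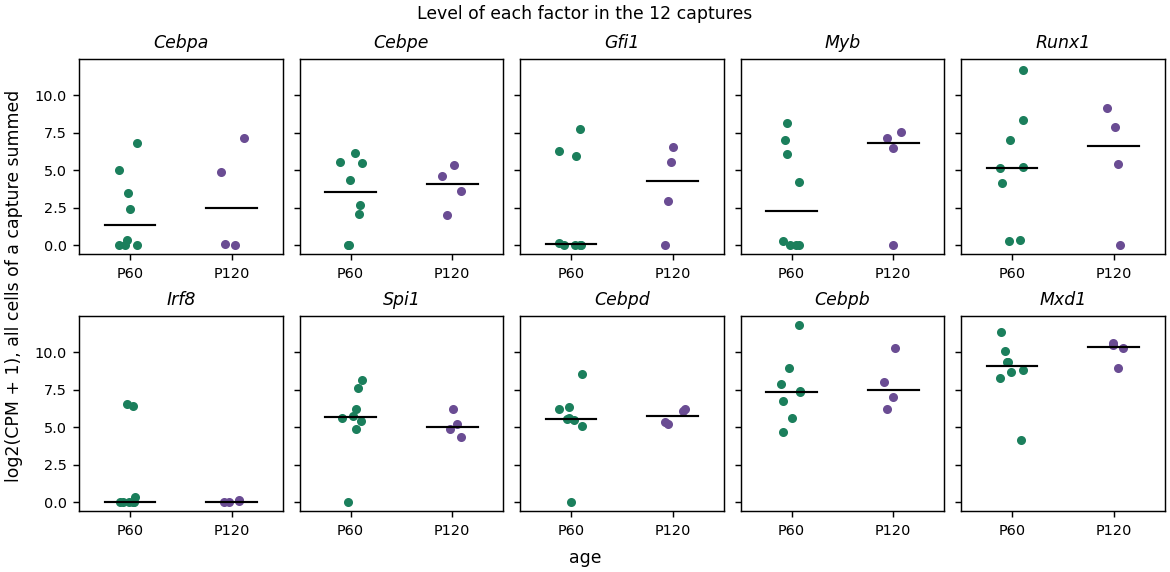
Points are captures, with all cells of a capture summed, on a log2(CPM + 1) scale; black bars are medians of 8 P60 and 4 P120 captures. The ages overlap for every factor. Irf8 is at 0 in 5 of the P60 and 2 of the P120 captures. It reaches 84.2 and 91.9 CPM in P60 captures 40 and 9c and at most 0.0904 CPM at P120. In captures 40 and 9c 1 cell held 99.9% and 89.6% of the Irf8 reads.

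Within the classes the age comparison gave no call either. Among Il1b cells none of 3648 genes passed with edgeR, though 181 (4.96%) had an unadjusted p under 0.05 and DESeq2 called 59. The called share was 0% in each direction, and 6 factors were tested. Among Elane/Mpo cells none of 9313 genes passed, 368 (3.95%) had an unadjusted p under 0.05 and DESeq2 called 366, Irf8 among them. All 10 factors were tested. Irf8 had an unadjusted p of 0.0037 and an adjusted p of 0.938 there, with 1 read in the P120 cells. Cebpe was read in 60% of 15 thinned P60 Elane/Mpo cells and in 34.8% of 23 P120 cells, and Cebpd in 73.3% and 34.8%. Myb was read in 73.3% and 56.5%, and Gfi1 in 46.7% and 34.8%. In the Il1b cells Cebpd was read in 48.6% of 35 P60 cells and 18.6% of 43 P120 cells, while Cebpb was read in 88.6% and 86%. These shares pool cells over captures. Before thinning, captures with at least 3 Il1b cells held Cebpd in 16.7% (19c) to 100% (21c) of them at P60. At P120 they held it in 13.3% (36) to 57.1% (28), so the ages overlapped. A difference of the class effect between the ages was tested for 8 factors and none passed. With 1 P60 capture, 0.0173% of all genes passed with a lower interaction term, which was Prss34 alone, and 0% passed with a higher one; 1.32% of all genes and none of the factors had an unadjusted p under 0.05.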

How the data were processed

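According to the paper and the labels, single cells from the cochleae were sorted, captured on the Fluidigm C1 and sequenced, and the authors aligned the reads with STAR to GRCm38 (mm10 in the submitters' processing notes) and counted them per gene; strand use in counting is not given in the sources used here. The deposited table holds raw read counts, without molecular identifiers, for 211 cells, 48709 genes and 92 spike-in sequences, which were left out. A second deposited table gives age, capture, sequencing run and a normalized GFP intensity, a score the authors scaled before deposit.

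Symbols, positions and exon lengths came from GENCODE vM21 (GRCm38), which matched 48349 identifiers; CPM are reads of a gene scaled to one common total of reads on genes. Cells were thinned once at random to 50000 reads; 95% intervals on shares are exact (Clopper-Pearson) and cover only counting error. Reads per cell ran from 41 to 5361476 (median 736455), and 33 cells had under 10000. The raw counts of all cells of a capture, or of a class in it, were added up, filtered with filterByExpr, scaled by TMM and tested with edgeR 4.0.16 (quasi-likelihood, Benjamini-Hochberg) in R 4.3.3, with DESeq2 1.42.0 as an alternative; the scripts were tested on simulated data. Standard errors are the log2 difference over the root of the F statistic. The class test blocks on the capture, since both classes come from the same pooled animals. Classes are separate cells, and p-values measure the spread between captures. Cells of a capture could lie in different sequencing runs, which this block does not take into account. Age is compared between captures, which no number pairs, and run S047 held P60 captures only. Alternatives changed the tool, scaling, filter, thinning, classes and captures. No doublet caller was run. The authors had removed cells with endothelial transcripts and outliers.

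Named genes were the 10 members, the 3 genes most like each, and listed genes that passed a test, with up to 4 of the highest level per list. Members and lists were chosen with earlier results of these data known. Elane, Mpo and Il1b defined the classes and are not results.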

Additional observations from a re-analysis of the deposited data

Results flagged for a closer look

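For each of 10 factors, sets were formed from 8 captures of P60, 4 of P120 and the 4 captures with both classes. Of these 40 sets, 15 held a capture far from the others. The rule used flags about 1 in 20 sets of normally distributed values. The CPM values are skewed and many captures held no read of a factor, so that rate does not hold here. The 15 flags thus cannot be set against chance. Capture 17c, which held 3 cells, stood high among the P60 captures in Cebpa (110 CPM), Cebpd (366), Gfi1 (211) and Runx1 (3313), and for each of these at least 86.5% of the reads came from 1 cell. Capture 10c stood high in Cebpb at 3581 CPM, where 1 cell of 110984 reads gave 91.1% of the Cebpb reads; the median cell of the capture held 451 reads. Myb was high in 9c (284 CPM) and Mxd1 in 20c (2656 CPM), and among the P120 captures Cebpb was high in 36 (1249 CPM), a capture with no Elane/Mpo cell.

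Within the Il1b cells of the 4 captures with both classes, Spi1 was high in 38 (126 CPM), Gfi1 in 32 (38.2), Myb in 9c (9.21), Runx1 in 28 (740), Irf8 in 38 (0.0745, from 1 read) and Mxd1 in 32 (4798). In the Elane/Mpo cells Irf8 was high in 9c (34.8 CPM). The causes of these values were not tested.

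Prss34 passed the test of the class by age interaction (-9.89 on the log2 scale, edgeR adjusted p 0.0203), but P60 is 1 capture in this fit, and the call was lost after thinning and when any of the 3 P120 captures was left out. Its level in the Elane/Mpo cells was 19504 CPM in 9c of P60, and 9.35, 37576 and 4.09 CPM in 28, 32 and 38 of P120. The P60 value thus lay within the P120 range, and no difference between the ages can be stated.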

How the results depend on the processing

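The class test called 18 genes higher and 90 lower in the Elane/Mpo cells. Their total was 1850 with DESeq2, 60 without the filter on low counts, 57 after thinning, 53 without cells under 10000 reads, 172 with cells of both classes joined to the Elane/Mpo cells, 45 with them joined to the Il1b cells, 396 with at least 1 cell of each class per capture, 6 with at least 5 and 2 without cells with Prss34 or Mcpt8. It ranged from 42 to 85 when a capture was left out, with 48 without capture 32, 53 without 38 and 42 without 9c. Of the calls, 16.7% were higher in the Elane/Mpo cells in the main test, 69.4% with DESeq2, 54.1% and 4.44% with the cells of both classes joined to either class, 79.3% with at least 1 cell per capture and 74.4% with a joint block of capture and run. A class threshold of 1 read could not be fitted.

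Captures pair the classes, and the block is in the main test. With no replicate block 42 genes were called, the median over all genes was 0.05, and Mxd1 alone of the factors passed. Cebpe was then at -0.35 and Runx1 at -0.33.

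Mxd1 kept its direction in all 17 alternatives (-6.35 to -2.05) and passed in 11, with adjusted p from 0.0012 (DESeq2) to 1. Myb was 1.96 to 8.87 and passed in 3 (DESeq2, at least 1 cell per capture, cells of both classes joined to the Elane/Mpo cells). Cebpb and Gfi1 kept their direction and passed with DESeq2 alone, and Spi1 kept its direction and never passed. In the main test Myb and Gfi1 met the filter on low counts through the Elane/Mpo cells alone. Their passes under the alternatives are no separate support. Cebpd changed sign after thinning (0.0071) and without cells with Prss34 or Mcpt8 (0.19). Cebpe changed sign after thinning (-0.32), without cells under 10000 reads (-0.15), at a threshold of 100 reads (-2.05) and without cells with Prss34 or Mcpt8 (-0.94), and was -0.15 to 2.24 over the captures left out. Runx1 changed sign without cells with Prss34 or Mcpt8 (-2.06) and when the block joined capture and run (-2.86), and was -0.050 to 3.14 over the captures left out. The cause was not tested.

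The interaction called 1 gene. It called 204 with DESeq2 and 0 without the filter, with no replicate block, after thinning, without cells under 10000 reads, with cells of both classes joined to the Il1b cells, with at least 1 cell, at 100 reads and without any of the 3 P120 captures. It could not be fitted without capture 9c, with at least 5 cells or at 1 read. The age test over all cells called 10 genes, 1 with RLE scaling, 22 without the filter, 0 after thinning, 6 without cells under 10000 reads and 1 to 16 with a capture left out (1 without 10c, 2 without 36, 5 without 20c or 38, 6 without 32 or 40, 16 without 21c). Within the Il1b cells it called 0, 59 with DESeq2, 1 with RLE scaling, 7 without the filter and 0 to 2 with a capture left out. Within the Elane/Mpo cells it called 0, 366 with DESeq2 and 11 without the filter. No factor passed an age test other than Irf8 among the Elane/Mpo cells with DESeq2, where 1 cell held 96.3% of its reads. Leaving out cells under 10000 reads or with the basophil proteases, and the block on run, were chosen after seeing the data. With 4 captures and large spread between them, a p that misses the threshold does not show equal levels.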

Other observations

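Cells of neither class held factors as well. Among 28 such cells after thinning, Mxd1 was read in 71.4%, Spi1 and Cebpb in 42.9% each, Cebpe in 32.1% and Myb in 14.3%. A single cell held 66.4% of the Spi1 reads of these cells and another 99.8% of their Irf8 reads. Their summed Cebpe level was 41.7 CPM, against 53.9 CPM in the Elane/Mpo cells and 9 CPM in the Il1b cells. Gata2, a factor of stem cells, mast cells and basophils, stood at 330 CPM in the Elane/Mpo cells and 0.246 CPM in the Il1b cells.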
